A study of Mus musculus with 2 samples.

Results

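C1q-high macrophages were the cells of this tumor model that carried the RNA of complement component C1q at high level together with the receptor for colony-stimulating factor 1. They were selected on measured values: at least 10 UMIs summed over C1qa, C1qb and C1qc, at least 1 Csf1r UMI, at most 1 UMI summed over Cd3d, Cd3e and Cd3g, and no UMI of Cd79a or Ncr1. A UMI (unique molecular identifier) marks 1 captured RNA molecule. Of 25814 cells that passed the cell filter of the study (at most 6000 genes and at most 25% mitochondrial UMIs), 96 met this rule, 53 of 14201 in the lenvatinib library and 43 of 11613 in the combo library. The working label of these cells also named Kupffer cells, the resident macrophages of the liver. Of the Kupffer cell genes, those taken here as defining (Clec4f, Timd4, Vsig4, Marco, Folr2 and Cd163) were at or near 0 in both libraries. Others, among them Slc40a1 and Cd5l, were present. The cells are therefore named by the rule alone and called C1q-high macrophages here.

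The samples were live CD45+ cells, that is, immune cells, sorted from liver tumors and measured by droplet single-cell RNA sequencing with Chromium 3′ chemistry. Tumors were raised in male C57BL/6J mice, 6 to 8 weeks old, by hydrodynamic tail vein injection of plasmids for human MYC, a guide RNA against Trp53 and the sleeping beauty transposase, which gave the Trp53KO/MYCOE model of hepatocellular carcinoma. Mice of both groups received lenvatinib at 30 mg/kg from 12 days after injection, and after 25 days, when the tumors counted as lenvatinib-resistant, were split into continued lenvatinib at 30 mg/kg or lenvatinib at 30 mg/kg with palbociclib at 100 mg/kg (combo). Lenvatinib inhibits receptor tyrosine kinases of the VEGF and FGF receptor families, and palbociclib inhibits the cell cycle kinases CDK4 and CDK6. Each group was 1 library, and how many mice a library pooled was not given in the sources used here. No replicate error exists, so intervals below cover counting error only, and a difference between mice, preparations or libraries and a difference between treatments cannot be told apart. The plasmids transform hepatocytes in place, and the immune cells are those of the host.

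C1q is the recognition unit of the classical complement pathway, built from the A, B and C chains that 3 adjacent genes encode, and macrophages are its main source. It also tags dying cells for uptake. In the liver, resident Kupffer cells clear blood-borne particles and recycle iron from aged red cells, while monocytes recruited from blood through the chemokine receptor CCR2 can mature into macrophages that come to express C1q.

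The 3 chain genes lie within 1 interval of chromosome 4 on the minus strand (mm10, GENCODE): C1qb at 136880129 to 136886187, C1qc at 136889804 to 136893065 and C1qa at 136895917 to 136898803. The 250 bases before the RefSeq start of 4 genes are shown (GRCm38.p6, the mm10 assembly), 2 from the chains that chose the cells and 2, Cd5l and Spic, from a group of genes on which the cells differed. Capitals mark GAGGAAGT, a site of the myeloid factor PU.1, its shorter part GAGGAA, which lies inside it, and TGCTGA, the half-site of MAF factors, on either strand. These letters were chosen with the genes known.
C1qb, chr4:136886201-136886450, minus strand: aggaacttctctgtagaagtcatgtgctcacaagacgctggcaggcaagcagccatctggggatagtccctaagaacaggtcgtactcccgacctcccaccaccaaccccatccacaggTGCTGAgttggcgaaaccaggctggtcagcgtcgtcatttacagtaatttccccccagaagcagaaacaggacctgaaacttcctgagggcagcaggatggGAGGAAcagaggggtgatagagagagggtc
C1qc, chr4:136892915-136893164, minus strand: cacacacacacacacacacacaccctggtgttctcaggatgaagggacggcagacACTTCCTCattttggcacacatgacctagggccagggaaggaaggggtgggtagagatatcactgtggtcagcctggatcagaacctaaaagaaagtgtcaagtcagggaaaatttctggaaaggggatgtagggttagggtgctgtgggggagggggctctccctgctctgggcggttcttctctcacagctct
Cd5l, chr3:87357631-87357880, plus strand: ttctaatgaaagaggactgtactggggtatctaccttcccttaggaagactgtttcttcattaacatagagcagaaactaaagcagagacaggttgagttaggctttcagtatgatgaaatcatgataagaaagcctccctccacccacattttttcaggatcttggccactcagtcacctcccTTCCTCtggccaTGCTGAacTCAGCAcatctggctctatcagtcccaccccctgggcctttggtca
Spic, chr10:88683024-88683273, minus strand: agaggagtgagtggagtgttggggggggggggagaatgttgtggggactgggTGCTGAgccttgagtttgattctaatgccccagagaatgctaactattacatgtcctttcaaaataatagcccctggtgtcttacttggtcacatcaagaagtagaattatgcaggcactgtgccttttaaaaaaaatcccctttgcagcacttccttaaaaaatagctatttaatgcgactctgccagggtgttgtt
C1qc held GAGGAAGT on the strand opposite to the gene, so that the printed line shows its reverse complement, and 2.44% of 32851 promoter windows of this length held it. GAGGAA stood in the windows of C1qb, C1qc and Cd5l and in 23.3% of all windows. TGCTGA stood in those of C1qb, Cd5l and Spic and in 16.1% of all windows. These are matches of letters only.

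The cells were deep enough for lists of genes but unequal between libraries. UMIs per C1q-high macrophage ranged from 663 to 36383 in the lenvatinib library, with a median of 4751, and from 601 to 29066 in the combo library, with a median of 10329, and the median mitochondrial share was 5.04% and 3.14%. Over all passing cells the median was 5541 and 5754 UMIs. The libraries shared 49 cell barcodes, none of them in a member. A doublet caller, Scrublet, marked 4.05% and 2.76% of cells and none of the 96. T cells (at least 3 Cd3 UMIs and at most 2 C1q UMIs), which should lack macrophage genes, were used as the measure of free RNA. That measure does not hold for genes that T cells can express themselves, such as Ly6c2 and Id3.

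C1q-high macrophages made up 0.373% of lenvatinib cells (95% Clopper-Pearson interval 0.280 to 0.488) and 0.370% of combo cells (0.268 to 0.498). The ratio of the shares was 0.992, with the ends of both intervals allowing 0.549 to 1.78. A difference in frequency was not detectable at this number of cells. The lineage conditions decided who was counted. Of the cells with at least 10 C1q UMIs, 111 under lenvatinib and 66 under combo, 33 and 10 had no Csf1r UMI and 22 and 14 had more than 1 Cd3 UMI.

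The values that chose the cells are given as a description. The sum of C1q UMIs per cell had a median of 37 under lenvatinib and 36 under combo, with the highest cell at 705 and 479. Because combo members were deeper, the same sums were a smaller part of their RNA, 120 against 36.5 C1q UMIs per 10000 UMIs at the median. All 3 chains were present in 51 of 53 lenvatinib members and 37 of 43 combo members. C1qa took 35.7% of the C1q UMIs under lenvatinib and 30.6% under combo, C1qb 35.3% and 45.4%, and C1qc 29% and 24.1%. Thus C1qb, the chain with the larger share under combo, was the highest chain in 33 of 43 combo cells against 24 of 53 lenvatinib cells. The threshold cut through a continuum. The 15 cells just inside it (10 to 12 C1q UMIs) had 5595 CPM (counts scaled to a summed total of 1000000 UMIs) of Apoe, 754 of Vcam1 and 425 of Ccr2, and the 13 cells just outside it (7 to 9) had 4245, 414 and 466. These values pool the libraries, with 8 lenvatinib and 7 combo cells inside and 5 and 8 outside.

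The macrophage identity of the cells held for genes that the rule did not use. Adgre1, which encodes F4/80, was at 334 CPM under lenvatinib and 212 CPM under combo, against 1.25 and 3.83 CPM in T cells. Cd68, a lysosomal membrane protein of macrophages, was at 1147 and 474 CPM. Fcgr1, the high-affinity IgG receptor, was at 198 and 232 CPM. All 8 genes of the macrophage core list outside the rule had UMIs in both libraries, which is a description only. Of the 13 T and NK cell list genes, only Ncr1 and Klrb1c had none, so presence alone marks no cell type.

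Of the Kupffer cell list, the defining genes were at or near 0 and others, among them Slc40a1 and Clec1b, were present. Clec4f, the C-type lectin restricted to Kupffer cells in mice, had no UMI in the 53 lenvatinib members, which allows a share of cells with a UMI of up to 5.66%, and 1 UMI in 1 combo member. Timd4, a receptor of long-lived resident macrophages that binds dying cells, was also at 0 under lenvatinib and at 1 UMI under combo. Vsig4, Marco and Cd163 were at 0 under lenvatinib and at 4, 2 and 5 UMIs under combo. Over these and Folr2, 6 defining genes in all, 3 lenvatinib cells held 3 UMIs and 8 combo cells held 14. Of the 18 genes on the list, 8 were at 0 under lenvatinib and 2 under combo. A split of the cells by Clec4f could not be made, since 1 cell had a UMI.

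Other genes on that list were well above background, and more so under lenvatinib. With each cell thinned to 2000 UMIs (40 lenvatinib and 37 combo members were deep enough), Slc40a1, the iron exporter ferroportin, was found in 50% of lenvatinib members (33.8 to 66.2) and 13.5% of combo members (4.54 to 28.8), against 0.392% and 0.460% of T cells. Cd5l, a secreted scavenger protein also called AIM, was in 27.5% and 5.41% of members. Spic, the transcription factor of iron-recycling macrophages, was in 25.0% and 18.9%, and its intervals overlapped widely. Il18bp, which neutralizes interleukin 18, was in 52.5% and 10.8%, and Clec1b in 32.5% and 2.70%. Id3, a regulator needed for Kupffer cell development, went the other way, with 2.50% and 32.4% against 6.77% and 4.79% of T cells. Without thinning Slc40a1 was in 64.2% and 27.9% of members.

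**Figure D1:**
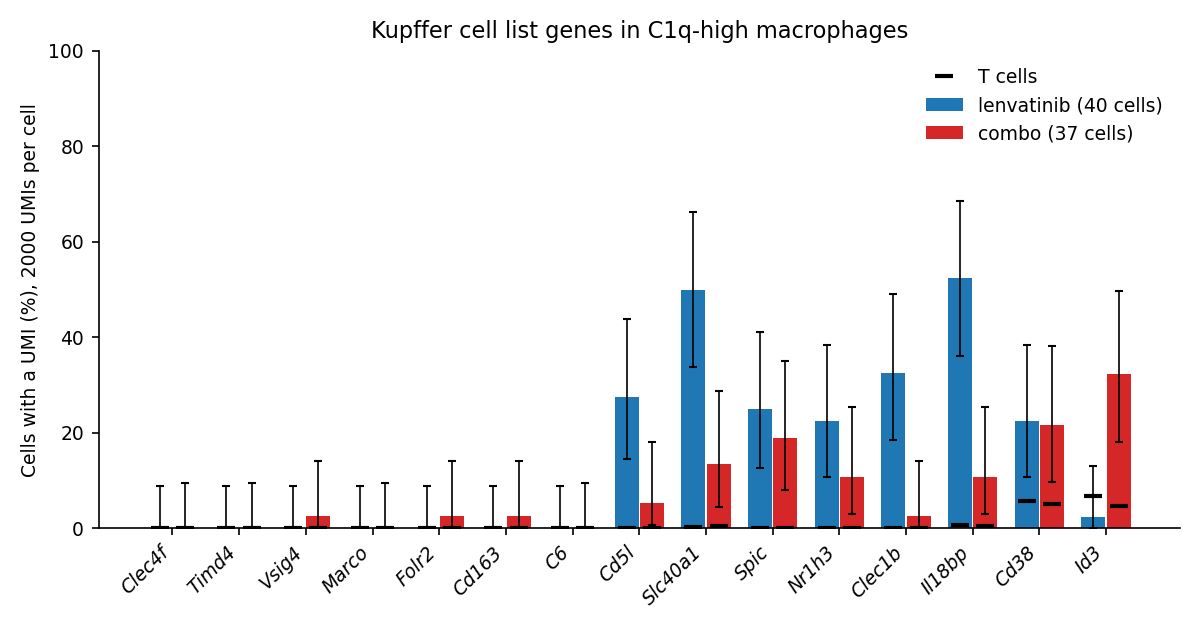
Share of C1q-high macrophages with at least 1 UMI of 15 genes from the Kupffer cell list (vertical axis, %), each cell thinned to 2000 UMIs, for 40 lenvatinib and 37 combo cells. Bars are shares, whiskers 95% Clopper-Pearson intervals and black dashes the share of T cells. Clec4f, Timd4, Marco and C6 are at 0 in both libraries, while Slc40a1 stands at 50% and 13.5%.

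To see what marks these cells among myeloid cells, they were set against C1q-low myeloid cells of the same library, 116 under lenvatinib and 497 under combo, with at most 2 C1q UMIs and at least 1 Csf1r and 5 Lyz2 UMIs, without neutrophil or dendritic cell markers above the limits given in the methods. Of 3034 genes that entered, 53 (1.75%) were at least 4-fold higher in C1q-high cells in both libraries and 29 (0.956%) at least 4-fold lower. Vcam1, an adhesion molecule that binds integrin on lymphocytes and monocytes, was at 3153 CPM in lenvatinib members against 2.24 CPM in C1q-low cells. Under combo it was at 286 against 0.407 CPM. These ratios, 1409 (389 to 11647) and 703 (190 to 5877), rest on 2 counts in each C1q-low set. Slc40a1 was at 1261 against 3.36 CPM under lenvatinib and 183 against 5.29 CPM under combo. Mertk, a receptor kinase that takes up dying cells, was 116 (39.0 to 570) and 30.3 (15.1 to 65.0) times as high. Ms4a7, a membrane protein of mature macrophages, was 96.6 and 35.8 times as high, and Mrc1, the mannose receptor, 30.2 and 83.4 times. Gpnmb, a lysosomal glycoprotein of lipid-laden macrophages, was 106 and 17.9 times as high. Cd5l, Itga9, Pf4 and Mmp14 completed the 10 genes with the largest ratios. Cd5l had no count in the combo C1q-low cells. Against a floor of 3 counts its ratio there was 194, and the lower end of the counting interval was 152.

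The genes lower in C1q-high cells were those of neutrophil granules. S100a8, a calcium-binding alarmin, was at 218 CPM in lenvatinib members against 3666 in C1q-low cells, and at 688 against 14083 CPM under combo. Camp, Ngp, Ltf, Lcn2, Mmp8 and S100a9, which encode granule and alarmin proteins, were also among the 10 with the smallest ratios, between 0.0118 and 0.0890, where Ltf and Mmp8 had no count in lenvatinib members and are bounds. All 7 neutrophil list genes that entered were past the fold. T cells held 658 and 7258 CPM of S100a8, so the free RNA of this gene differed between libraries, and its part in the C1q-low values was not tested.

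**Figure D2:**
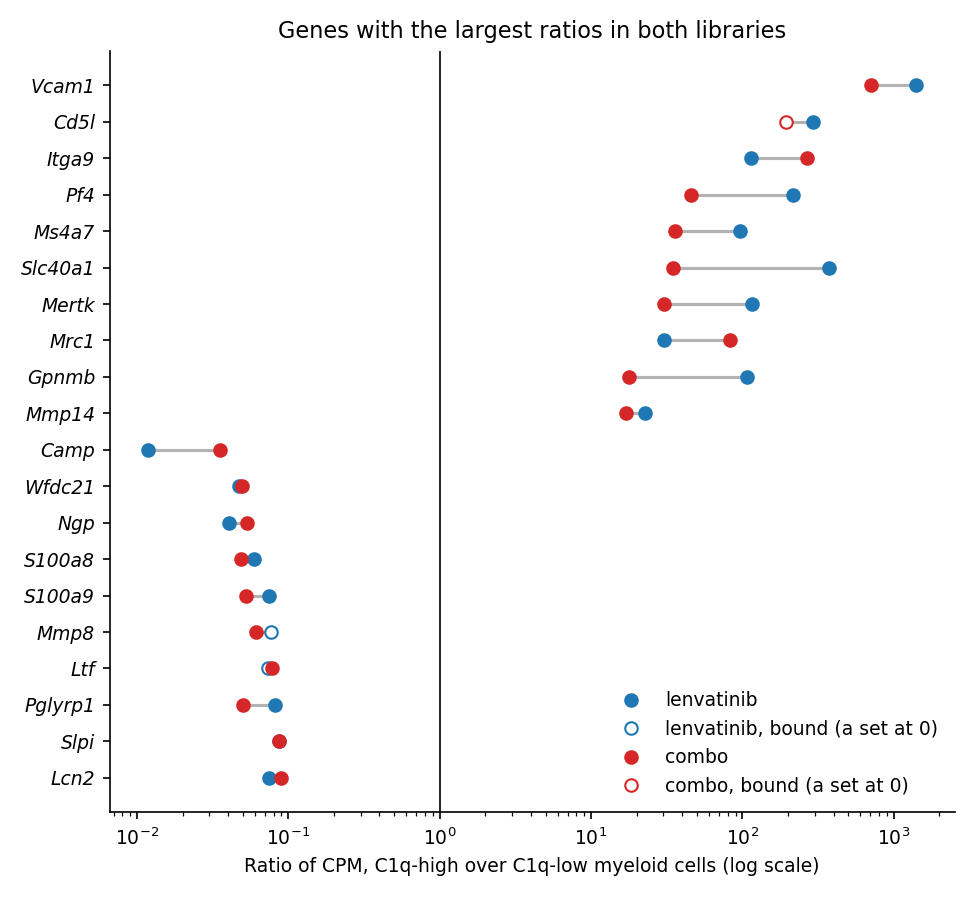
Ratio of CPM in C1q-high macrophages over C1q-low myeloid cells (horizontal axis, log scale) for the 10 genes with the largest and the 10 with the smallest ratio, ranked by the library with the less extreme value. Blue points are lenvatinib, red points combo, and open points bounds where 1 of the sets had no count. Vcam1 stands at 1409 and 703, Camp at 0.0118 and 0.0352.

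Beyond the leading genes, the gene lists differed in how many members passed. Of the Kupffer list, 5 of 7 genes that entered were past 4-fold higher in both libraries, of the lipid-associated macrophage list 6 of 11 and of the lipid handling list 6 of 13, with none lower, beside 1.75% of all genes. These lists hold 18, 14 and 16 genes. A gene near 0 in C1q-low cells could enter only by being high in members, so the counts are a description and not a test. Apoe, the apolipoprotein that loads cholesterol onto particles, was at 15915 CPM (15524 to 16313) under lenvatinib and 9839 CPM (9536 to 10149) under combo, 16.8 and 7.69 times C1q-low cells. Lpl, which releases fatty acids from lipoproteins, was 36.1 and 6.37 times as high, and the cholesterol exporter Abca1 20.9 and 4.06 times. Trem2, a lipid-sensing receptor of lipid-associated macrophages, was at 203 and 234 CPM, only 2.83 and 1.79 times C1q-low cells. Among uptake receptors, 2 of 10 passed, Mertk and Axl, the latter at 603 and 91.3 CPM.

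The lysosome list summed to 41765 CPM in lenvatinib members and 21203 CPM in combo members, against 10420 and 10835 CPM in C1q-low cells. The median log2 ratio over its 21 genes that entered was 1.97 and 0.86, beside -0.20 and 0.01 over all genes. Lgmn, an asparaginyl protease, and the tetraspanin Cd63 passed 4-fold in both libraries, and the cathepsins Ctsb and Ctsd did so under lenvatinib, at 8.57 and 17.3 times, against 3.80 and 3.46 times under combo. Of the iron list 2 of 10 passed, Slc40a1 and Spic. The ferritin chains Fth1 and Ftl1 were at 2.03 and 2.12 times C1q-low cells under lenvatinib and 2.21 and 1.87 times under combo.

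None of the 7 MHC class II genes passed the fold in both libraries, yet the list differed by library. H2-Aa, an antigen-presenting chain, was at 1535 CPM in lenvatinib members and 2045 CPM in combo members, 1.43 and 5.87 times C1q-low cells, in which it was at 1073 and 349 CPM. Cd74, the invariant chain, was at 4047 and 5497 CPM. Of the other complement genes, C3ar1, the receptor for the C3a fragment, was 41.5 and 8.08 times as high, and properdin (Cfp) 3.35 and 1.36 times. C1s1, Cfd and Serping1 were at 0 in both libraries, and C1ra at 2 counts and 0, which for each gene at 0 allows UMIs in up to 5.66% of lenvatinib and 6.98% of combo cells. Of 19 transcription factors 3 passed, beside 1.75% of all genes: Maf, Nr1h3 (the oxysterol receptor LXRα) and Spic. Maf was at 798 and 382 CPM, 10.5 and 5.71 times C1q-low cells. Arg1, often used for immunosuppressive macrophages, was at 0 in both libraries. Of 11 chemokines 2 passed, Cxcl16 and Pf4, and Ccl17, Ccl22 and Cxcl13 were at 0.

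Other genes are described here across bins of C1q, the measure that chose the cells. All cells that met the lineage conditions were binned by C1q UMIs, which were not scaled to depth. Median UMIs per cell in the bins of 3 to 9, 10 to 29 and 30 to 99 were 3080, 1961 and 3574 under lenvatinib. Under combo they were 9251, 5991 and 9613.5. In the bin of 100 or more they were 14375 and 12180. Cells of the same bin were therefore not matched between libraries on the C1q part of their RNA. In the lenvatinib library, Vcam1 was at 4.28 CPM in cells with 0 to 2 C1q UMIs, 715 with 3 to 9, 1673 with 10 to 29, 1609 with 30 to 99 and 4292 with 100 or more. In the combo library the same bins gave 1.54, 4.37, 88.1, 237 and 756 CPM. Of the 6 combo cells in the highest bin, 1 held all 66 Vcam1 counts and 1 all 25 Slc40a1 counts, and in the bin of 3 to 9 there was 1 Vcam1 count. Vcam1 was therefore below the lenvatinib value in every bin, and the intervals of the 4 bins from 3 UMIs up did not overlap. Apoe was at 445, 2727, 6439, 9378 and 21750 CPM across the lenvatinib bins and at 885, 3413, 6366, 12418 and 12250 CPM across the combo bins. It was thus lower under lenvatinib in the lowest bin and higher in the highest, with intervals that did not overlap. Ccr2 was at 491, 503, 281, 255 and 4.43 CPM across the lenvatinib bins, and at 499, 734, 587, 616 and 641 CPM across the combo bins. The lenvatinib cells with the most C1q had 1 Ccr2 count and the combo cells 56. The combo bin of 100 or more held 6 cells and the lenvatinib bin 15. Cd74 was highest in the bin of 30 to 99 in both, at 6843 and 6859 CPM, and lower above it, at 2230 and 2748 CPM.

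**Figure D3:**
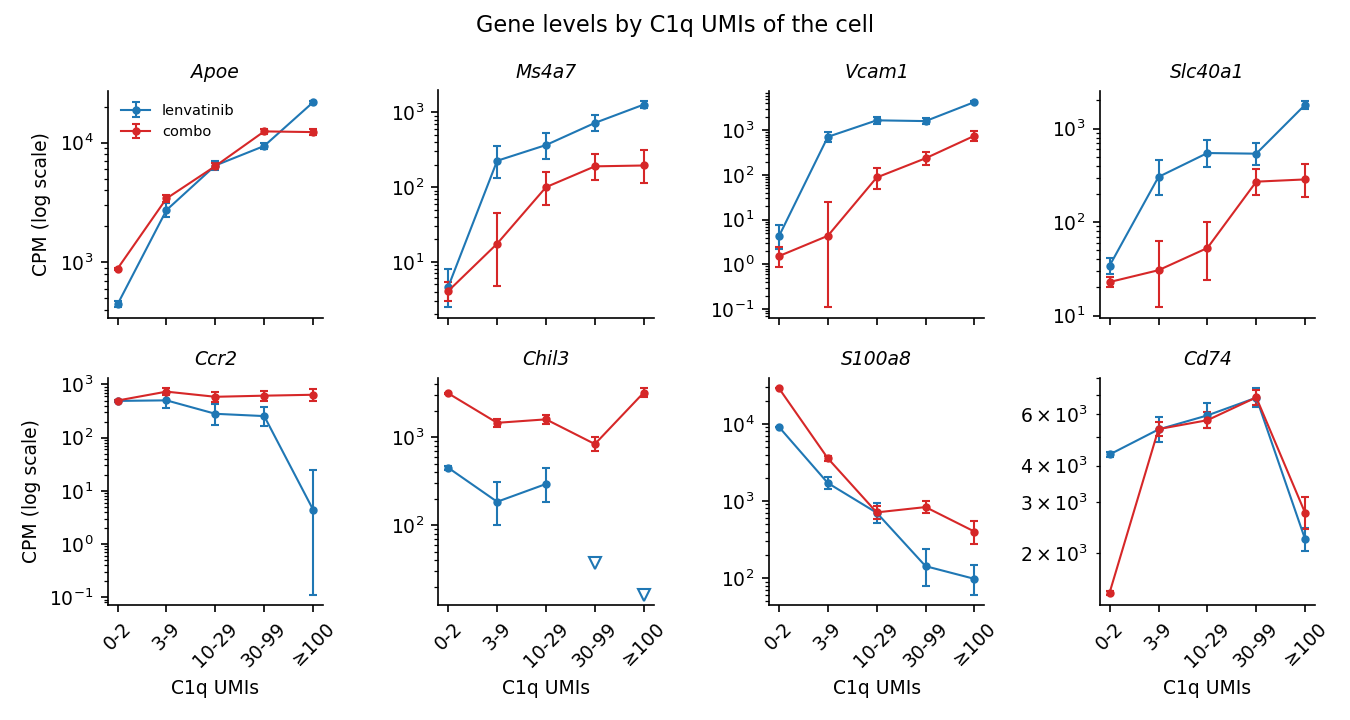
CPM (vertical axes, log scale) of 8 genes in cells grouped by C1q UMIs (horizontal axes) for lenvatinib (blue) and combo (red). Cells of the same bin differed in depth between the libraries. Points are summed counts, whiskers exact 95% Poisson intervals, and open triangles the upper limit where no count was found. Apoe is at 21750 CPM in the highest lenvatinib bin and 12250 CPM in the highest combo bin, Vcam1 and Slc40a1 are lower under combo from 3 C1q UMIs up, and Ccr2 is at 4.43 CPM (1 count) in the highest lenvatinib bin.

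Single cells were sorted into 2 patterns by sets of genes. A set of 4 genes of iron handling and adhesion (Vcam1, Slc40a1, Cd5l and Spic) was set against 4 genes of recruited monocytes (Ccr2, Plac8, Chil3 and Ly6c2), both chosen after their values were seen. Opposite majorities in the libraries therefore follow from the choice and are not a separate result. The counts at other depths and C1q levels describe the same split. The iron and adhesion set had a median of 33.0 UMIs per 10000 in lenvatinib members (0 to 205) and 0 in combo members (0 to 127). The monocyte set had a median of 0.682 (0 to 80.3) and 16.5 (0 to 141). In 41 of 53 lenvatinib cells the iron and adhesion set was higher and in 10 the monocyte set, while in combo the numbers were 10 and 32 of 43. With cells thinned to 2000 UMIs they were 30 and 9 of 40 under lenvatinib and 4 and 29 of 37 under combo. Among members with at least 5000 UMIs they were 18 and 6 of 24, and 3 and 26 of 30. Both patterns occurred in both libraries, and 24 lenvatinib and 14 combo cells had UMIs of both sets. With 100 or more C1q UMIs, 15 of 15 lenvatinib cells had the iron and adhesion set higher and 5 of 6 combo cells the monocyte set.

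**Figure D4:**
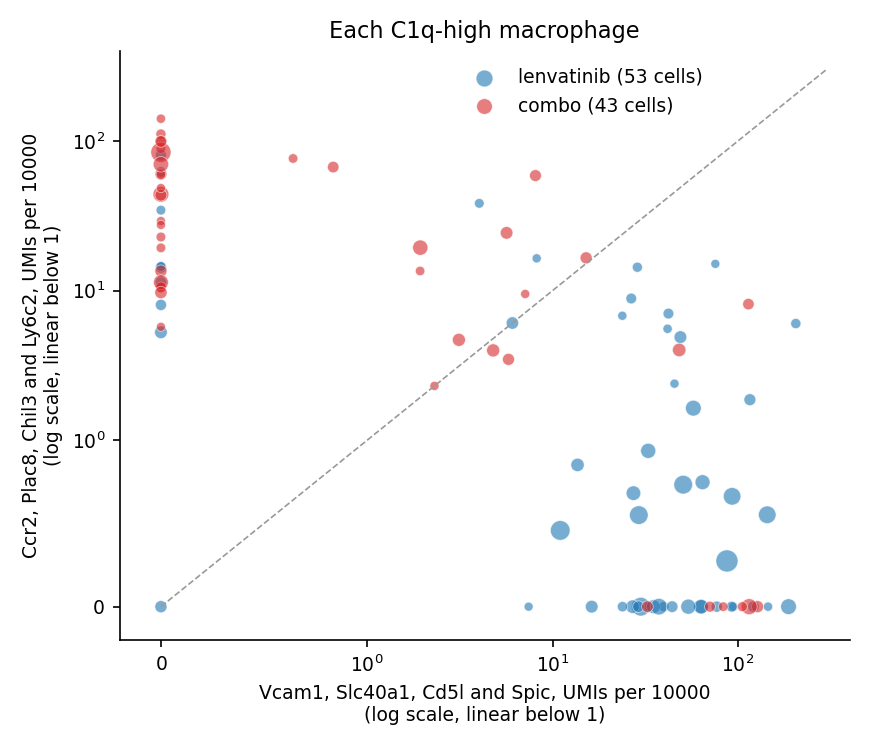
Each point is 1 C1q-high macrophage, with the summed UMIs per 10000 of Vcam1, Slc40a1, Cd5l and Spic on the horizontal axis and of Ccr2, Plac8, Chil3 and Ly6c2 on the vertical axis (log scales, linear below 1). Blue is lenvatinib, red combo, and larger points have more C1q UMIs. Most of the 53 lenvatinib cells lie below the dashed line of equal values (41 cells), most of the 43 combo cells above it (32 cells). Both sets were chosen after these values were seen.

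The lysosome list summed to 47325 CPM under lenvatinib and 53769 CPM under combo in cells with the iron and adhesion set higher, and to 17236 and 17339 CPM in cells with the monocyte set higher. Apoe was at 19020 and 17515 CPM in the first and at 1855 and 9125 CPM in the second, where the intervals of the libraries did not overlap. Selenop, a secreted selenium carrier, was at 2621 and 2566 CPM in the first and 237 and 435 CPM in the second. The MHC class II list summed to 7736 and 16008 CPM in iron and adhesion cells and to 26496 and 15515 CPM in monocyte-set cells. The 10 combo cells of the first pattern had a median of 1564.5 UMIs and the 32 of the second 12180, so the smaller group was also shallow.

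Between the treatments, Vcam1, Slc40a1, Mertk, Axl and 13 of 22 lysosome genes had lower CPM in combo members, and Ccr2, Plac8, Il1b and Cxcl2 higher CPM. Of 3547 genes that entered, 308 (8.68%) were at least 2-fold higher under combo and 522 (14.7%) at least 2-fold lower. These counts are past a fold, with no test. Leaving mitochondrial, ribosomal protein and hemoglobin genes out of the totals moved the split to 485 higher and 517 lower. The median log2 ratio of all genes was -0.07.

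The monocyte list stood out in the upward direction, with 10 of 12 genes that entered past 2-fold higher and none lower, beside 8.68% of all genes. Ccr2 was at 116 CPM under lenvatinib (8 of 53 cells) and 609 CPM under combo (29 of 43 cells), a ratio of 5.23 (3.81 to 7.33). Plac8, a lysosomal protein of myeloid cells, was at 415 and 2213 CPM. Chil3, a chitinase-like protein of monocytes and neutrophils, was at 53.2 CPM in 2 cells and at 1675 CPM in 27 cells. Chil3 was also higher under combo in C1q-low cells, at 849 and 3652 CPM, and in T cells, at 21.0 and 249 CPM, and the part of free RNA was not tested. Of the lenvatinib Chil3 counts, 95.2% came from 1 cell. Ly6c2 was at 76.0 and 188 CPM, but its direction turned when CPM were averaged over cells, with a ratio of 0.843. T cells held 1009 and 730 CPM of Ly6c2, above the members. Fn1 did not pass the fold, and Vcan was too low to enter.

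The same contrast in the other direction held Vcam1, at 3153 CPM in 42 of 53 lenvatinib cells and at 286 CPM in 11 of 43 combo cells (ratio 0.0908, 0.0744 to 0.110). One combo cell held 56.9% of its combo counts, and with the highest cell of each library left out the ratio was 0.0431. Of the Kupffer list, 6 of 8 genes that entered were lower and 1, Id3, higher, beside 14.7% and 8.68% of all genes. Slc40a1 had a ratio of 0.145 (0.112 to 0.185), Il18bp 0.110 (0.0688 to 0.168) and Clec1b 0.0886 (0.0393 to 0.175), with 77.8% of its 9 combo counts in 1 cell. Cd5l had 0.362, with 64.6% of its combo counts in 1 cell. Of the uptake list, 5 of 12 were lower, among them Mertk at 0.190 and Axl at 0.151. Lower on the lysosome list were 13 of 22, none higher, with Ctsd at 0.299 (0.273 to 0.327) and Cd63 at 0.155 (0.120 to 0.198). Lipid handling had 8 of 15 lower and 1, Apoc2, higher. Mmp12, macrophage elastase, was at 1074 CPM in 24 lenvatinib cells and 46.9 CPM in 6 combo cells. Apoe (0.618) and Trem2 (1.16, 0.85 to 1.58) did not pass the fold.

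**Figure D5:**
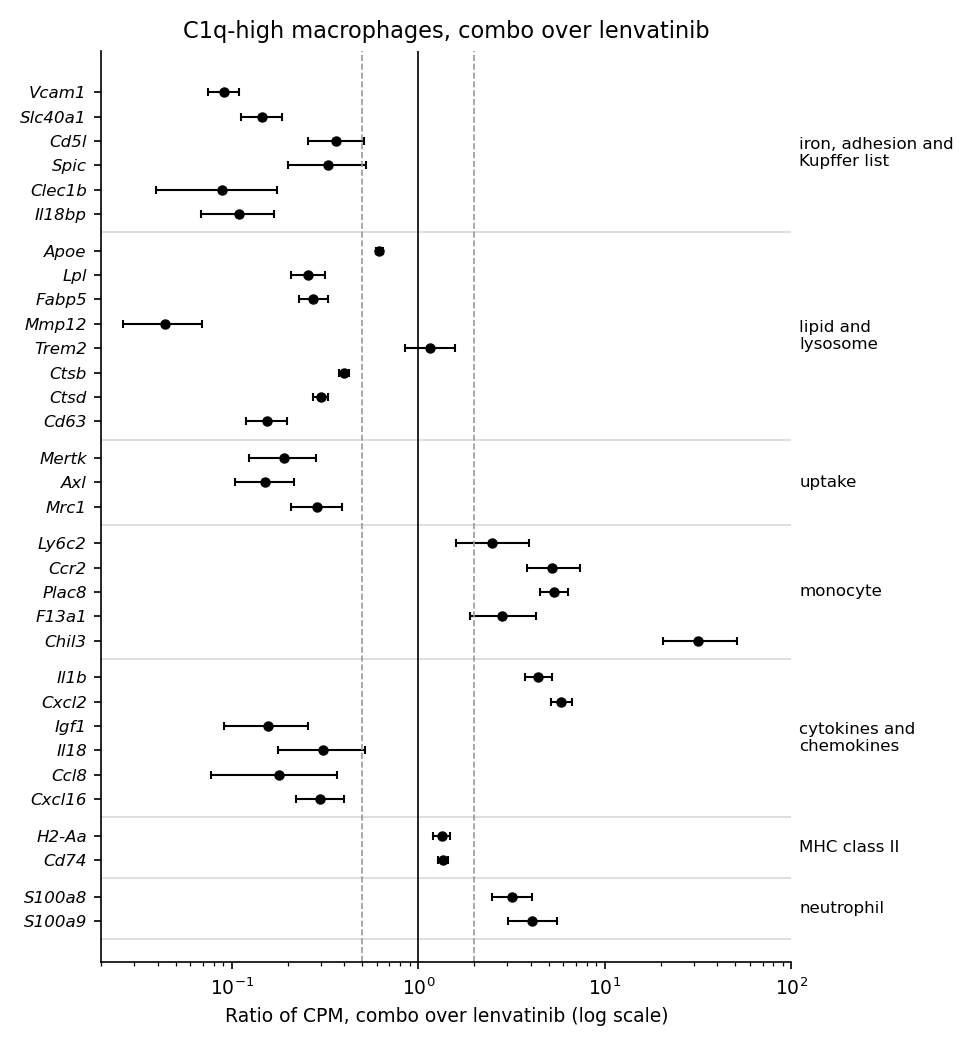
Ratio of CPM in C1q-high macrophages, combo over lenvatinib (horizontal axis, log scale), for genes grouped by list. Points are ratios, whiskers 95% counting intervals, and dashed lines mark 0.5 and 2. Vcam1 (0.0908), Slc40a1 (0.145), Mertk (0.190) and Ctsd (0.299) lie left of the dashed lines, Ccr2 (5.23), Il1b and Cxcl2 right of them, and Trem2 (1.16) between them. Ly6c2 turned to 0.843 as a mean over cells.

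Signals the cells send were divided. Il1b, the inflammasome cytokine, was at 469 CPM under lenvatinib (15 cells, with 51.4% of the counts in 1 of them) and 2060 CPM under combo (32 cells), and Cxcl2, a neutrophil chemoattractant, at 709 and 4133 CPM. Their levels in T cells were 57.8 and 183 CPM, and 152 and 696 CPM. Of 10 cytokine and growth factor genes that entered, Il1b and Osm were past the fold upward and Il18, Tnf, Igf1, Pdgfb and Hgf downward. Hgf turned to a ratio of 2.16 when cells were thinned to 2000 UMIs. Igf1, a growth factor of tissue macrophages, was at 299 and 46.9 CPM, in 29 and 7 cells. Of 15 chemokines, 9 were lower and 2, Ccl7 and Cxcl2, higher, beside 14.7% and 8.68% of all genes, shares that also stand behind the other counts of this paragraph. Ccl8 was at 124 and 22.2 CPM (66.7% of the combo counts in 1 cell), and Cxcl16, which attracts CXCR6-bearing T cells, at 514 and 153 CPM. Cxcl1 turned to a ratio of 1.66 without the highest cells, since 1 lenvatinib cell held 91.1% of its counts. Interferon-stimulated genes had 8 of 13 lower and none higher. Their list summed to 2229 CPM under lenvatinib and 1110 CPM under combo. The medians of single cells lay closer, at 8.85 and 7.54 UMIs per 10000, with the highest cell at 123 and 44.1. How far a few lenvatinib cells carried the difference in summed CPM was not tested. Rsad2, an antiviral enzyme, was at 357 CPM in 14 cells and 9.87 CPM in 3 cells, and Cxcl9, which attracts activated T cells, at 106 and 14.8 CPM. MHC class II had 1 of 7 past the fold, H2-DMb1, at 2.26, a count near the share of all genes. Inhibitory ligands had 3 of 10 past it, Siglece and Pvr higher and Entpd1 lower, while Cd274, which encodes PD-L1, was at 109 and 128 CPM.

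The counts of the remaining lists stand beside 8.68% higher and 14.7% lower of all genes. Of 20 myeloid transcription factors, Cebpb, Id1, Id3 and Nr4a1 were past the fold upward and Maf, Nr1h3, Id2, Spic and Mitf downward. Cebpb, a factor of inflammatory gene expression, was at 519 and 1860 CPM. Of the iron list 3 of 10 were lower, Slc40a1, Spic and Ncoa4, while Hmox1, which degrades heme, was at 420 and 476 CPM. None of 6 Fc receptors passed in either direction. Of 14 immediate early and heat shock genes, which respond to tissue handling, 4 were lower, Fosb, Egr1, Hspa1a and Hspa1b, with Egr1 at 1178 and 126 CPM. The part of handling in the other ratios was not tested.

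The largest single ratios were small counts. Among the highest under combo were Thbs1, Id1, Saa3, Chil3, AA467197, St3gal5, Nrg1, Krt80 and Klra2, of which 6 had 1 count under lenvatinib and Saa3 none. Thbs1, the matricellular protein thrombospondin 1, had 1 and 118 counts, a ratio of 115 with an interval of 20.2 to 4578, and its combo counts were spread over 16 cells. Saa3, an acute-phase protein, had 100 combo counts in 6 cells, 74.0% of them in 1 cell. Lower under combo were Pdgfc, Rsad2, Cela1, Ccr3, Tmem26, Galnt3, Slco2b1, Dnase1l3, Ccdc148 and Serpina3g. Ccr3 turned to a ratio of 1.08 when cells were thinned. Pdgfc, a platelet-derived growth factor, had 42 counts in 17 lenvatinib cells and 1 under combo (ratio 0.0232, 0.000574 to 0.136).

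Palbociclib acts on the cell cycle, whose genes were measured in 2 lists. Pcna, the sliding clamp of DNA replication, had UMIs in 23 of 53 and 25 of 43 cells, at 139 and 113 CPM. The S phase list summed to 329 CPM under lenvatinib and 227 CPM under combo, against 1064 and 632 CPM in T cells. Mki67, a protein of cycling cells, had UMIs in 8 of 53 and 7 of 43 cells, at 43.1 and 24.7 CPM. The mitosis list summed to 279 CPM under lenvatinib and 49.3 CPM under combo, with 8 of 14 genes at 0 under combo. In T cells the same list summed to 821 and 235 CPM. Birc5 was the 1 mitosis gene that entered, with 20 counts in 6 cells under lenvatinib, 50% of them in 1 cell, and none under combo. Its ratio, taken against a floor of 3 counts, was 0.146, and without the cell filter the ratio was 1.19. Of the 7 CDK4/6 pathway genes that entered, beside 8.68% higher and 14.7% lower of all genes, Ccnd3 (3.10, 1.54 to 6.77) and Cdkn2d (2.56) were past the fold upward and Cdk6 (0.283, 0.118 to 0.609) downward. Cdk4 had 17 counts in each library.

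Markers of other cells moved with the libraries. The neutrophil list had 6 of 6 genes that entered past 2-fold higher under combo, beside 8.68% of all genes. Its sum was 509 and 1838 CPM in members, 7260 and 31317 CPM in C1q-low cells and 1520 and 16733 CPM in T cells, so the members were below T cells in both libraries. Csf3r, a receptor of neutrophils and monocytes, was at 73.4 and 56.8 CPM, against 12.1 and 33.2 CPM in T cells. The hepatocyte list summed to 567 and 239 CPM, of which Trf, which macrophages also express, made 539 and 160 CPM. Alb had 2 and 13 counts. T and NK cell genes summed to 385 and 163 CPM and endothelial genes to 38 and 37 CPM, with 5 and 6 of 8 endothelial genes at 0. The part of free RNA in the combo ratios was not tested.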

How the data were processed

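For 2 libraries of sorted CD45+ cells the deposited values were unnormalized UMI counts of genes in barcodes, totaling 98107503 and 93583402. The labels and methods name Cell Ranger 5.0.1, the file header 6.0.1, with mm10; the annotation release is not given in the sources used here. Barcodes with over 6000 genes or over 25% mitochondrial UMIs were removed (308 and 376). The members, gene lists and rules for named genes were chosen with earlier results of these data known.

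Counts were summed over members per library and given as CPM with exact 95% Poisson intervals; ratios carry exact binomial intervals. With 1 library per group no test was run and no paired analysis was possible. A gene entered the combo comparison with at least 50 CPM in the higher library and 20 counts over both, and passed at 2-fold. It entered the comparison with C1q-low cells (at most 2 C1q and 1 Csf3r UMIs, no Flt3 or Siglech, the same lineage conditions) at 50 CPM in the higher set in both libraries, and passed at 4-fold in both. Mitochondrial, ribosomal protein, immunoglobulin, T cell receptor and rule genes were not named. A set at 0 was given a floor of 3 counts. Python 3.11.15, scipy 1.17.1 and Scrublet in scanpy 1.11.5 (expected rate 6%) were used; the steps were tested on simulated counts. Named were 2 to 6 genes per list by role and the 10 largest ratios per direction. Lilrb4b and Mx1 had no row under these symbols. A few genes that these rules name are not reported here.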

Additional observations from a re-analysis of the deposited data

Results flagged for a closer look

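Among genes with at least 50 CPM in the higher set of both libraries, in 8 the ratio of C1q-high to C1q-low myeloid cells was at least 2-fold above 1 in 1 library and at least 2-fold below 1 in the other. The difference between libraries was not tested. Higher in members under lenvatinib and lower under combo were Rsad2, at ratios of 6.65 and 0.135, Hist1h2bc at 4.53 and 0.333, and Stmn1, a microtubule regulator of cycling cells, at 2.08 and 0.131. The opposite held for Id1, at 0.0472 and 2.14, Id3 at 0.409 and 3.11, Tnip3, an inhibitor of NF-κB signaling, at 0.206 and 2.26, Marcksl1 at 0.307 and 2.04, and Errfi1, a feedback inhibitor of the EGF receptor, at 0.443 and 2.94. Id1 in lenvatinib members was 1 count, and 70.9% of its combo counts came from 1 cell.

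Signal also stood outside the rule. The cell filter removed 1 barcode under lenvatinib and 2 under combo that met every other condition. Cells with at least 10 C1q UMIs and more than 1 Cd3 UMI numbered 22 under lenvatinib and 14 under combo. Of these, 18 and 11 had a Csf1r UMI, their C1q UMIs had a median of 27 and 37, and Scrublet marked 2 and 0 as doublets. Among all cells with at least 3 Cd3 UMIs, 8.20% (7.56 to 8.87) under lenvatinib and 2.49% (2.09 to 2.94) under combo had a C1q UMI.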

How the results depend on the processing

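No paired analysis was possible because each group was 1 library, and leaving out a replicate was not possible for the same reason. The ratio of member shares lay between 0.764 and 1.47 over its alternatives, the higher end being with cells of at least 5000 UMIs, an alternative chosen after seeing the data, as was leaving out the highest member. Genes at least 2-fold higher under combo numbered 485 with mitochondrial, ribosomal protein and hemoglobin genes left out of the total, 170 at a minimum of 100 CPM and 111 with members thinned to 2000 UMIs, and genes at least 2-fold lower numbered 256 and 142 under the latter settings. Against C1q-low cells, 30 genes were at least 4-fold higher and 18 lower at 100 CPM, 91 and 49 at 20 CPM, and 53 were lower with no Lyz2 or Csf3r condition. Fewer genes or counts enter at a higher minimum and after thinning. Kupffer list genes in at least 10% of combo members numbered 3 with at most 10% mitochondrial UMIs, and the cause was not tested. Of 1834 recomputed values of single genes, 1591 stayed within their limit, 237 moved past it and 6 reversed. The limit was the counting interval for combo ratios and shares of cells, and a fixed fold for ratios over C1q-low cells. Reversed were Ly6c2 (0.843) and Cxcl1 (1.21) as a mean over cells and Cxcl1 without the highest member (1.66). The others were Ccr3 (1.08) and Hgf (2.16) after thinning, and Birc5 (1.19) without the cell filter. Of all 308 higher and 522 lower genes, 15 and 60 were at a ratio of 1 or beyond it after thinning, and 8 and 11 as a mean over cells. Members under 2000 UMIs, 13 under lenvatinib and 6 under combo, limit the shares of cells.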
